A study of Rattus norvegicus with 12 samples.

Results

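Among 12 arrays of rat epididymal fat, food removed replicate 3 carried 202 transcripts at a high signal that most other arrays did not share. The markers used here, Gpx5, Adam7, Lcn5, Cst8 and Rnase10, are known from the epididymis, the duct beside this fat pad in which sperm mature. By signal on that array these markers ranked 1, 6, 5, 23 and 16 among the 202. The 202 are probes, of 22523 on the array, selected on their measured values: a signal of at least 300 in the authors' normalized units on food removed replicate 3, and at least 8 times the larger of 25 and the median of the other 11 arrays. A gene symbol is given for 167 of the probes (166 genes, with Isyna1 on 2 probes), and 35 probes are unnamed here. Their level on food removed replicate 3 is therefore a description and was not tested.

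Total RNA of epididymal adipose tissue came from male Sprague-Dawley rats aged 40 days, 1 rat per array, on 12 arrays of 1 RatRef-12 Expression BeadChip. The chip reads each transcript with a probe carried by many beads, and it gives a signal and a detection p-value against negative control probes. Food had been taken away from 6 rats, for 6 h per the labels (the clock times in the methods give a longer time), and 6 rats stayed on ad lib feeding. The groups are called by their labels, although Angptl4, Pdk4 and Hcar2 ran against the direction the study gives, as described with the test of feeding. The study asked how removal of food changed the fat. The chip positions of the food removed arrays were 1 and 3 to 7, and those of the ad lib arrays 2 and 8 to 12, so that position and group can hardly be told apart. The median raw signal per array was 105.3 to 139.6 in food removed and 91.1 to 137.3 in ad lib arrays, and 51.25 to 59.64% of all probes were detected at p under 0.05, with food removed replicate 3 at the top of that range.

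The epididymis is a coiled duct that joins the efferent ducts of the testis to the vas deferens. Its lining of principal, basal and clear cells secretes proteins that bind to sperm, protect them from oxidation and give them motility. The first stretch, the initial segment and caput, is known for lipocalins that carry lipids, for cystatins, for members of the ribonuclease A family and for secreted glutathione peroxidase, many of them under the control of androgens. The sets below are ordered by these roles.

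Because Gpx5, Lcn5, Cst8 and Rnase10 had their high signal on the same array, the sequence around their gene starts is given, from 250 bases before the start to 50 after it, from RefSeq on build GRCr8. Capitals mark AGGAAG or its reverse complement CTTCCT, a core that ETS factors such as Etv4 bind, and AGAACA or its reverse complement TGTTCT, a core of androgen receptor elements. Adam7 is named only.
Gpx5, chr17:48131603-48131902, plus strand: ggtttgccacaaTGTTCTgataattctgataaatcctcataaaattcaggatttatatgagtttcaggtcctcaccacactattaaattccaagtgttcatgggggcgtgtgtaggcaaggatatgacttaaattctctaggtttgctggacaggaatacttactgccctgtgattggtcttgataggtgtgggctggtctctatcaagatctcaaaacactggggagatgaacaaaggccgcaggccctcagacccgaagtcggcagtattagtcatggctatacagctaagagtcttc
Lcn5, chr3:28871073-28871372, plus strand: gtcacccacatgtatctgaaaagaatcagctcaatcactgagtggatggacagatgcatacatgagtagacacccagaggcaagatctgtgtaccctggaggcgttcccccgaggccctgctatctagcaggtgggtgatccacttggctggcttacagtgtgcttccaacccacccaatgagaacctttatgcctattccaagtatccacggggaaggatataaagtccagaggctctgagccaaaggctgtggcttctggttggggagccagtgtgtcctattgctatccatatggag
Cst8, chr3:156697526-156697825, plus strand: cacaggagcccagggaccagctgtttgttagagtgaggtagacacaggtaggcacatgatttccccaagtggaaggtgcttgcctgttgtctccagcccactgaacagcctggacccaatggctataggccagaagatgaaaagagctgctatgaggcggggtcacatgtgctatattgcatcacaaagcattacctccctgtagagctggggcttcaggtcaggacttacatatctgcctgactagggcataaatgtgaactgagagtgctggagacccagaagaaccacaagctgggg
Rnase10, chr15:26699969-26700268, plus strand: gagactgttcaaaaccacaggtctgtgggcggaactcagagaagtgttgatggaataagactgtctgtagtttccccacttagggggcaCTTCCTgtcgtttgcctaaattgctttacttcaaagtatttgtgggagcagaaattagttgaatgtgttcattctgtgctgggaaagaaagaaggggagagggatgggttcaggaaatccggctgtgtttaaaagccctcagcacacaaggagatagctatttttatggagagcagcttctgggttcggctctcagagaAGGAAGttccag

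The Rnase10 sequence held 2 matches to the ETS core and none to the androgen receptor core, and the Gpx5 sequence held 1 match to the androgen receptor core and none to the ETS core. The Lcn5 and Cst8 sequences held neither. AGGAAG, on either strand, was found in 53 of the 120 member genes with such a sequence (44.17%), against 34.29% of 27457 rat promoters. AGAACA, on either strand, was found in 19 of the 120 (15.83%), against 20.06% of all. The letters of both motifs can share bases where AGGAAG runs into AGAACA, and a match is a description of these windows only.

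Gpx5, a secreted glutathione peroxidase of the caput, had the highest signal of all probes on food removed replicate 3, at 36065 units. It lay at -4.37, 7.24 and 256 (lowest, median and highest) on the other 5 food removed arrays, against 2.55, 14.1 and 32.1 on the ad lib arrays. The groups overlapped once that array was set aside, and the value of 256 belonged to food removed replicate 4. Adam7, a membrane protein of the metalloprotease-disintegrin family that passes to sperm, had 24127 units on food removed replicate 3. Its other food removed arrays had -2.34, 3.91 and 97.4, against 1.49, 10.4 and 23.2 on ad lib arrays. Food removed replicate 4 was again the next array in order.

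Cst8, the cystatin-related epididymal spermatogenic protein, had 8308 units on food removed replicate 3. On the other food removed arrays it had -11.2, -4.80 and 28.4 units, against -9.42, -5.76 and 2.66 on the ad lib arrays, so that 10 of those 11 arrays did not detect it. Rnase10, a ribonuclease-like protein of the initial segment, had 12202 units on food removed replicate 3. The other food removed arrays had 20.1, 33.8 and 73.4 units, against 22.1, 29.1 and 40.1 on the ad lib arrays. It was detected at p under 0.05 on all 11 of them, at a level near the median of all probes (23.3 units on each array).

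Lcn5, the retinoic acid-binding lipocalin of the epididymis, did not follow the other 4 markers. It had 25427 units on food removed replicate 3, 1996 on food removed replicate 5 and 1969 on ad lib replicate 6. Among the other 9 arrays its signal was 1.54 to 419 with a median of 23.2, and the 419 was on food removed replicate 4. Thus 1 marker of the 5 was clearly present on a pair of further arrays, and 4 were not.

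**Figure D1:**
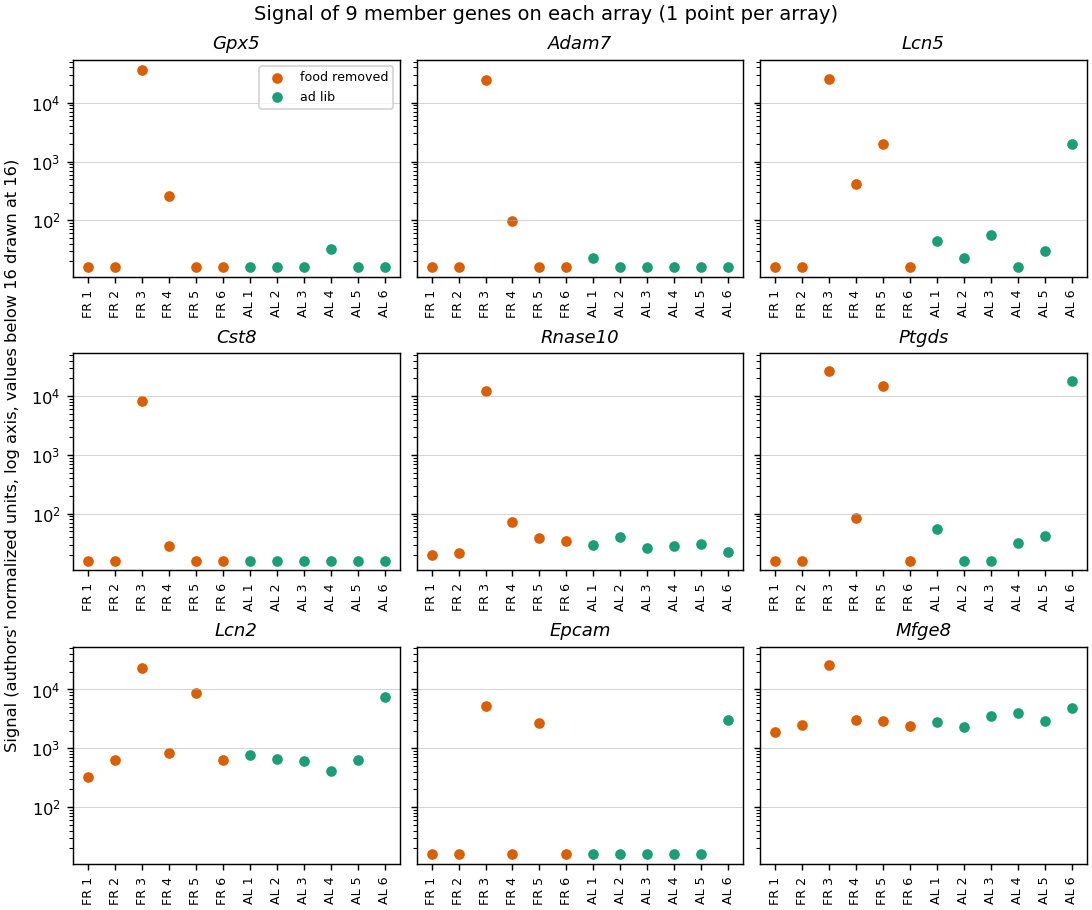
Signal of 9 member genes on each of the 12 arrays (y axis, authors' normalized units, log axis, values below 16 drawn at 16), with food removed arrays (FR) left and ad lib arrays (AL) right; each point is 1 array. Gpx5, Adam7, Cst8 and Rnase10 were high on FR 3 with FR 4 next, Lcn5, Ptgds, Lcn2 and Epcam were high on FR 3, FR 5 and AL 6, and Mfge8 had 1900 to 4755 units on the arrays other than FR 3.

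For scale, the raw signal of Gpx5 on food removed replicate 3 was 32713 with a standard error of 940.9 over 38 beads. On food removed replicate 4 it was 591.0 with a standard error of 26.6 over 28 beads, against a median raw signal of 139.6 on that array. Such standard errors cover the beads of 1 array only and not the difference between rats.

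Over all 202 members the signal on food removed replicate 3 ran from 303.9 to 36065 units (median 1111), which was 8.084 to 1443 times the larger of 25 and the median of the other 11 arrays (median 23.9 times). The median of the other arrays was below 25 units for 123 members and at or above 100 for 29. Food removed replicate 3 was the highest of the 12 arrays for 182 members. Of the other 20, 12 were highest on food removed replicate 5, 7 on ad lib replicate 6 and 1, Rpl30, on ad lib replicate 2. Among all probes food removed replicate 3 was the highest array for 10.81% and the lowest for 17.3%.

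**Figure D2:**
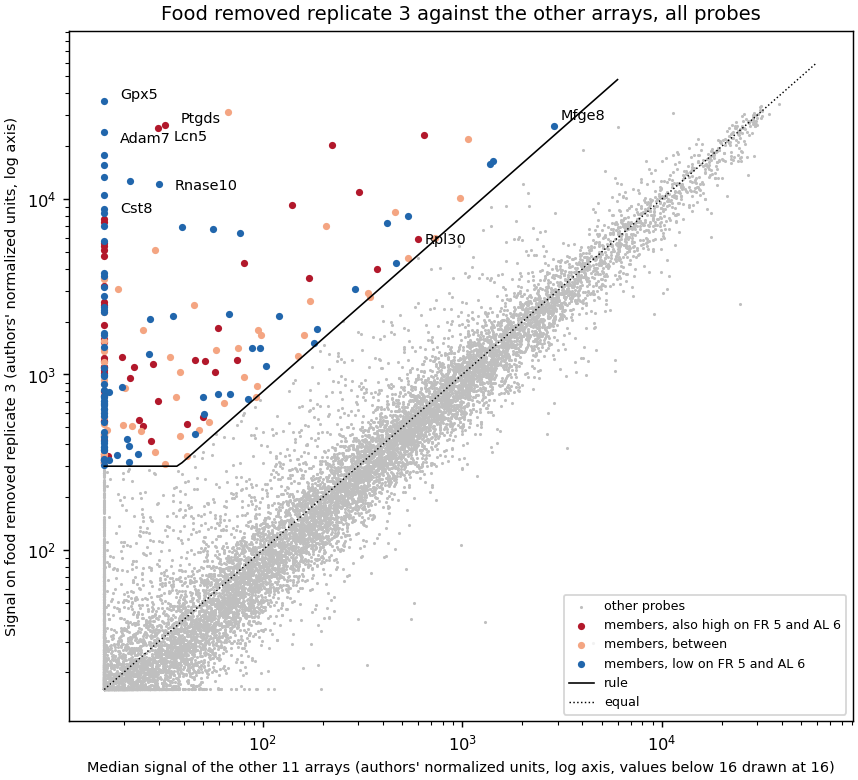
Signal on food removed replicate 3 (y axis) against the median of the other 11 arrays (x axis) for all 22523 probes, in the authors' normalized units on log axes with values below 16 drawn at 16; colours give the 202 members by their level on FR 5 and AL 6, the solid line is the selection rule and the dotted line marks equal signal. Gpx5 and Adam7 lie at the left edge near the top, and Mfge8 and Rpl30 lie close to the line of the rule.

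At the edge of the value threshold the members with the lowest signals were C1qtnf12 (303.9), Cfap52 (310.3) and Folr1 (310.8), and Cfap126 (296.3), Tmem184a (291.6) and Efcab10 (290.2) lay just below it. At the edge of the fold threshold Penk (8.084 times), Smarcd3 (8.118) and Krt8 (8.161) were inside, and Rasl11b (7.946), Pfkp (7.728) and St14 (7.485) outside. A further 48 probes passed the fold but not the value of 300, and 78 had at least 300 units with a fold of 4 to 8.

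The members did not form a single block on the other arrays. Food removed replicate 5 and ad lib replicate 6 detected 160 and 162 of the 202, and the median of the members was 135.2 units on food removed replicate 5 and 147.2 units on ad lib replicate 6. Food removed replicate 4 detected 123, with a median of 24.1 units. The remaining 8 arrays detected 82 to 110 members (40.59 to 54.46%), against 51.25 to 56.81% of all probes, with medians of 12.2 to 16.6 units. Of the members, 22 were detected on none of the other 11 arrays, 79 on 1 to 4 of them and 62 on all 11.

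When the same rule was applied to each array in turn, it picked 202 probes on food removed replicate 3, 73 on food removed replicate 5 and 78 on ad lib replicate 6, and 0 to 6 on each of the other 9 arrays. Of these probes, 50 were members in both cases. Food removed replicate 5 and ad lib replicate 6 shared 69 probes, and 22 of them were not members. Thus the members stood out on 3 arrays from both feeding groups, although only food removed replicate 3 carried the whole set.

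The members were therefore split after these values were seen, by the level on food removed replicate 5 and ad lib replicate 6 against the larger of 25 and the median of the other 9 arrays. In a shared set, 58 members (48 named) were at least 8 times higher on both of these arrays. In a low set, 85 members (68 named) were below 2 times on both, and 59 members lay between. In the shared set the median member had 64.7% of its food removed replicate 3 signal on food removed replicate 5 and 72.0% on ad lib replicate 6. In the low set these shares were 1.96% on food removed replicate 5 and 1.76% on ad lib replicate 6. The split used the levels on these same arrays, so the direction of this contrast follows from it.

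**Figure D3:**
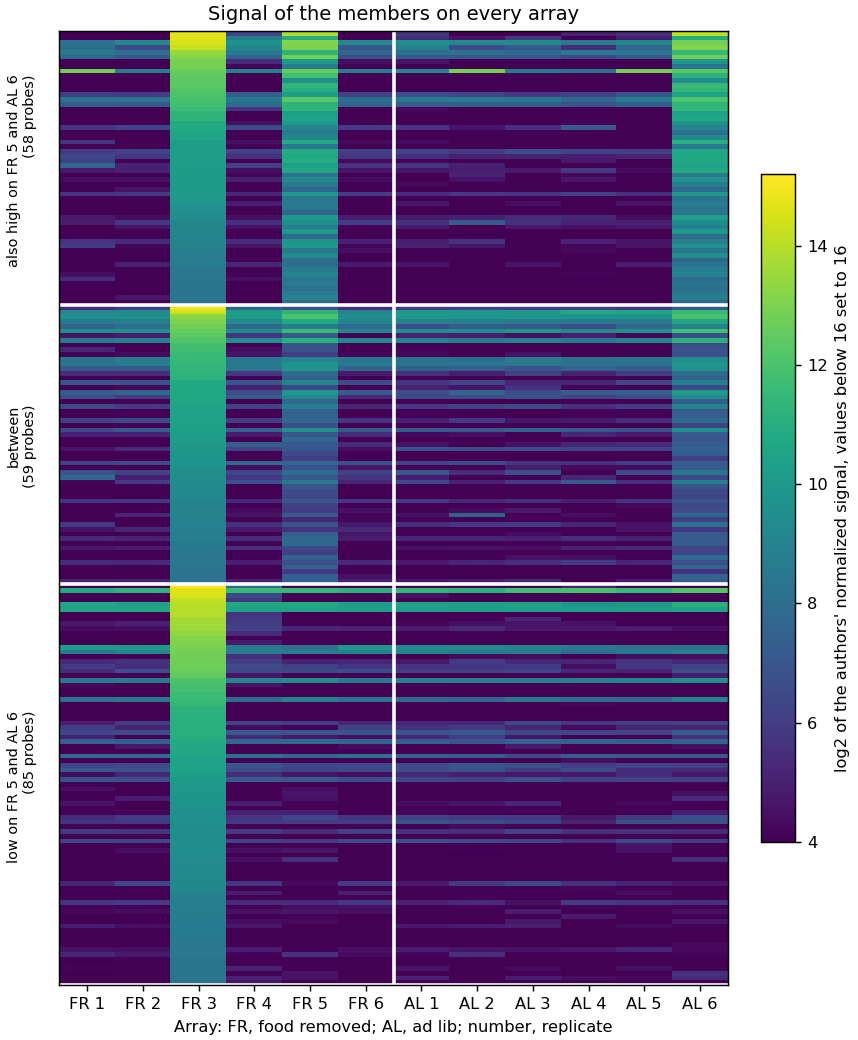
Signal of the 202 members (rows) on each of the 12 arrays (columns, food removed FR left and ad lib AL right), as log2 of the authors' normalized signal with values below 16 set to 16; rows are split by the level on FR 5 and AL 6 and ordered by FR 3. The top 58 rows are bright on FR 3, FR 5 and AL 6. The bottom 85 are bright on FR 3 and, for the brightest rows, faintly on FR 4. A few rows of each set, such as Rpl30 at the top and Mfge8 at the bottom, are bright on further arrays.

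Lipocalins were split between the sets. Ptgds, which makes prostaglandin D2 and carries lipids, had 26491 units on food removed replicate 3, 14883 on food removed replicate 5 and 18055 on ad lib replicate 6, against -1.95 to 83.1 on the other 9 arrays. Lcn2, an iron-siderophore carrier that white fat also makes, had 23330, 8688 and 7432 units on the same 3 arrays and 321.2 to 831.5 on the other 9. Lcn10 had 7418, 401 and 291 units on them and -7.39 to 17.1 on the others. With Lcn5, these make 4 of the 7 lipocalin members that were also high on food removed replicate 5 and ad lib replicate 6.

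The other 3 lipocalins, Lcn6, Lcn9 and Lcn12, which in mouse are known from the epididymis, were high on food removed replicate 3 alone. Lcn9 had 12634 units there and 11.5 to 62.3 on the other 11 arrays. Lcn12 had 6939 units there and 27.6 to 67.3 elsewhere, and Lcn6 had 2336 units there and -11.1 to 14.3 elsewhere. Lcn8 was not a member, with 13.1 units on food removed replicate 3.

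The ribonuclease A family members and the cystatins belonged without exception to the set that was low on food removed replicate 5 and ad lib replicate 6. Rnase9 had 13322 units on food removed replicate 3 and 3.99 to 60.1 on the other 11 arrays, and Rnase12 had 10552 units and -13.5 to 41.0. Rnase13 had 370.1 units, with none of the other 11 arrays detecting it. Cst12 had 7008 units against 0.531 to 47.4 on the other arrays, and Cst11 had 2430 against -15.8 to 5.73. Adam28, a relative of Adam7 also found in lymphocytes, had 1430 units on food removed replicate 3 and 1.13 to 20.9 on the others.

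Proteins that attach to sperm or resemble those that do were mostly in the same set. Ly6g5c and Ly6g5b, small Ly6 domain proteins, had 17731 and 8828 units on food removed replicate 3, and on the other arrays at most 54.1 and 9.73. Cd52, a small glycoprotein of sperm and lymphocytes, had 2078 units there and 8.20 to 65.8 elsewhere. Spag11a, a beta-defensin-like peptide of the caput, had 848.6 units there and -0.00374 to 38.5 elsewhere. Serpina1f, a serpin that mouse epididymis makes, had 15628 units on food removed replicate 3 and -8.78 to 53.6 on the other arrays.

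Members tied to epithelium as such were often present on all 3 of these arrays. Of the 9 members on the list of general epithelium, 2 were in the shared set, 7 lay between and 0 were in the low set. Epcam, an adhesion molecule of nearly all epithelia, had 5155 units on food removed replicate 3, 2661 on food removed replicate 5 and 3086 on ad lib replicate 6, against -17.5 to 11.4 on the other 9 arrays. Cd24, a surface glycoprotein, had 9229, 7192 and 6889 units on these 3 arrays and 84.6 to 209.4 on the other 9. Cldn10, a tight junction protein singled out after its values were seen, had 5589, 3754 and 2412 units and at most 6.89 on the others. Of 17 members for junctions, keratins and epithelial adhesion, a set gathered after the values were seen, 7 were also high on food removed replicate 5 and ad lib replicate 6, 8 lay between and 2 were low there.

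Not every epithelial gene kept these proportions. Cldn3, another tight junction protein, had 2260 units on food removed replicate 3, but 172.4 on food removed replicate 5 and 186.1 on ad lib replicate 6, and Cdh1, E-cadherin, had 750.7, 206.5 and 320.3. Esrp1, an epithelial splicing regulator, had 606.0, 90.1 and 86.5 units, and Spint1 had 353.0, 67.4 and 76.6. Rab25, a small GTPase of epithelial membrane traffic, had 342.0 units on food removed replicate 3 and 106.1 on each of the other two, against 28.2 to 61.2 on the other 9 arrays. Tp63 and Krt14, markers of basal cells, had 631.5 and 323.8 units on food removed replicate 3, against -16.0 to 5.95 and 0.436 to 34.7 on the other 11 arrays.

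Several bright members of other roles showed the 3-array pattern as well. Aldh1a1, which makes retinoic acid, had 20343 units on food removed replicate 3, 8216 on food removed replicate 5 and 8635 on ad lib replicate 6, against 43.6 to 575.3 on the other 9 arrays. Adgrg2, an adhesion receptor of the efferent ducts and epididymis, had 11004, 2495 and 2878 units on these arrays and 209.7 to 406.1 on the rest. Ces5a, a carboxylesterase secreted in the epididymis, had 5395, 843.3 and 681.5 units and at most 13.7 on the rest. By contrast Slc38a5, a glutamine transporter and the second brightest member, had 31194 units on food removed replicate 3, 107.2 on food removed replicate 5 and 144.4 on ad lib replicate 6, against 43.0 to 199.8 on the rest.

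Some members were higher on food removed replicate 5 and ad lib replicate 6 than on food removed replicate 3. Wfdc2, a protease inhibitor-like protein first described in human epididymis, had 709.9 units on food removed replicate 3, 1053 on food removed replicate 5 and 1265 on ad lib replicate 6, and at most 43.9 on the other 9 arrays. The next 3 genes were singled out after their values were seen. Dio1, a thyroid hormone deiodinase, had 1253, 1927 and 2283 units, Gjb2, a gap junction protein, had 1206, 1622 and 1588, and Ppp1r1b, an inhibitor of protein phosphatase, had 1141, 1742 and 1778. For these genes the order of the 3 arrays differed from that of Ptgds or Epcam.

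The 22 probes picked on both food removed replicate 5 and ad lib replicate 6 that were not members were also present on food removed replicate 3. They had 167.8 to 716.9 units on food removed replicate 3, and 17 of them fell below 300 there. Of the 17 with a symbol, Tekt1, Tekt2, Dnah1 and Dynlrb2 encode parts of motile cilia or flagella, and Slc9a3, Cubn and Slc7a9 encode proteins of absorptive epithelia. Cubn had 399.8 units on food removed replicate 3, 532.8 on food removed replicate 5 and 604.3 on ad lib replicate 6, and Slc9a3 had 234.9, 471.4 and 476.8. These genes were singled out after their values were seen.

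Across the 202 members, on the log2 scale, the signals of food removed replicate 5 and ad lib replicate 6 correlated at r = 0.991 (Spearman 0.987). Food removed replicate 3 correlated with food removed replicate 5 at r = 0.307 and with ad lib replicate 6 at 0.316. These are descriptions across probes, which share the chip and are not independent. Over all 22523 probes food removed replicate 5 and ad lib replicate 6 correlated at 0.991, with food removed replicate 3 in a pair at 0.947 to 0.975, and the other pairs without it at 0.969 to 0.995. Angptl4, an inhibitor of lipoprotein lipase, had a log2 signal of 9.81 on food removed replicate 5 and 11.91 on ad lib replicate 6, and these arrays were kept as 2 samples.

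**Figure D4:**
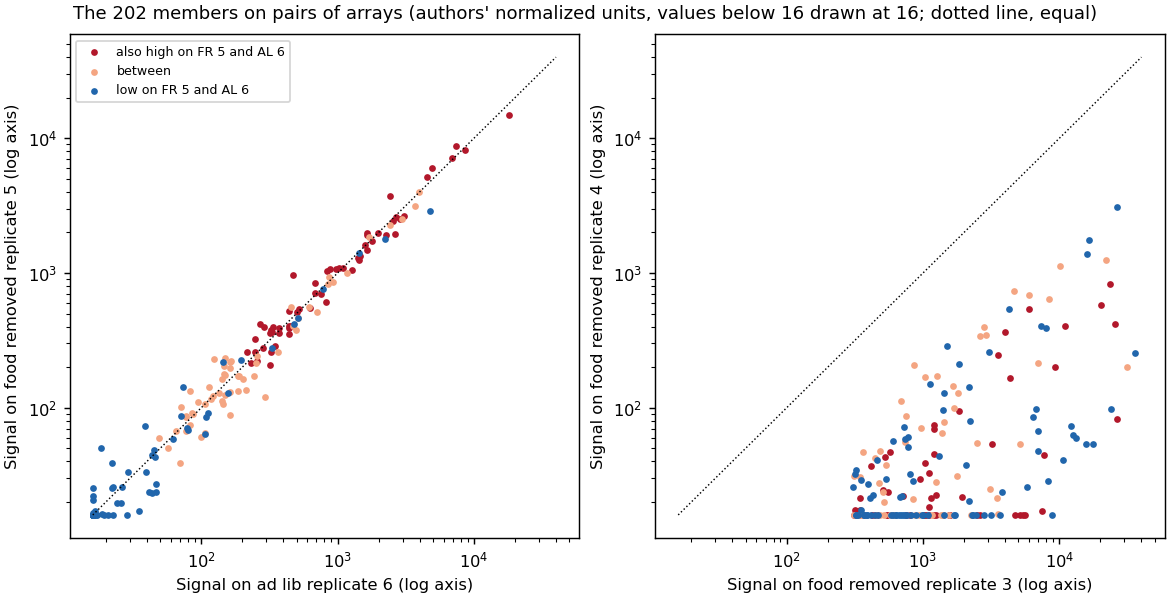
The 202 members on pairs of arrays (authors' normalized units, log axes, values below 16 drawn at 16; the dotted line marks equal signal; colours as level on FR 5 and AL 6). Left, food removed replicate 5 (y axis) against ad lib replicate 6 (x axis), which lie along the dotted line with r = 0.991; right, food removed replicate 4 (y axis) against food removed replicate 3 (x axis), which all lie far below it with r = 0.618.

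Food removed replicate 4 carried a faint copy of the brightest members. It exceeded the highest of the 8 remaining arrays (those other than food removed replicates 3 and 5 and ad lib replicate 6) for 65 of the 202 members, against 9.102% of all probes, and for 29 of the 39 members with at least 5000 units on food removed replicate 3. Each of the 8 arrays, set against the others and food removed replicate 4 in the same way, did so for 10 to 23 members. Across the members its signal correlated with that of food removed replicate 3 at r = 0.618, a value that was 0.421 for food removed replicate 2 and 0.451 for ad lib replicate 4. Food removed replicate 4 lies at chip position 5, next to food removed replicate 3 at position 4, and food removed replicate 2 lies on the other side at position 3. The part of chip position in this signal was not tested.

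Some members were well above background on every array, as was true of all 10 named members with the highest median on the other 11 arrays. Mfge8, a phosphatidylserine-binding protein of milk fat globules that epididymal epithelium also secretes, had 26264 units on food removed replicate 3 and 1900 to 4755 on the others. St6gal1, a sialyltransferase, had 15862 units there and 1190 to 1548 elsewhere. Il13ra2, a decoy receptor for interleukin 13, had 7994 units there and 277.4 to 1257 elsewhere. These 3 genes were detected on all 12 arrays, with food removed replicate 3 above the rest.

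Bin2a had 21890 units on food removed replicate 3, 2517 on food removed replicate 5 and 2963 on ad lib replicate 6, and 549.5 to 1715 on the other 9 arrays. Spint2, a Kunitz inhibitor of epithelial serine proteases, had 10173, 4020 and 3958 units and 747.8 to 1127 on the rest. Prom1, a protein of apical membrane protrusions, had 8402, 1854 and 1695 units and 380.0 to 639.4 on the rest. Krt8, an epithelial keratin also found in mesothelium, had 5966, 3166 and 3724 units and 554.3 to 910.0 on the rest, and Hoxb7, a homeobox gene of the trunk, had 4633, 2271 and 2405 units and 372.6 to 730.0.

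Rpl30, a ribosomal protein gene of all cells, matched the rule without the pattern of the others. It had 4945 to 7773 units on food removed replicates 1, 3 and 5 and ad lib replicates 2, 5 and 6, and 321.0 to 598.9 units on the other 6 arrays. Ad lib replicate 2 was its highest array. Acta1, the actin of skeletal muscle, was also a member, with 1107 units on food removed replicate 3, 285.8 on food removed replicate 5 and 347.4 on ad lib replicate 6.

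The lists of marker genes were then read on food removed replicate 3, as a description, since this array chose the members. Among all probes this array was the highest for 10.81% and the lowest for 17.3%, shares to set beside the counts below. For the initial segment and caput, 29 of 45 listed genes had a probe, 20 of them were members and 25 were higher on food removed replicate 3 than on all 11 other arrays. The list's median was 13.01 on the log2 scale of the background-corrected signals on food removed replicate 3 and 4.79 to 5.93 on the others. Npc2, a sterol carrier, and Clu, clusterin, were no members because all fat samples gave a signal for them, but had 30990 and 25628 units there, against medians of 11358 and 6024 units. For the corpus and cauda 9 genes had a probe, 3 were members and 5 were higher there.

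Markers of epithelium in general were higher on the same 3 arrays. Of 17 genes with a probe, 14 were higher on food removed replicate 3 than on any other array, and the list's median was 9.48 there, 7.27 on food removed replicate 5 and 7.42 on ad lib replicate 6, against 4.84 to 5.21 on the other 9 arrays. The 3 basal cell genes with a probe were all highest on food removed replicate 3, with a list median of 8.60 against 4.42 to 4.74. Of 16 sperm and spermatid genes, 11 were highest there at a lower level, with a median of 6.73 against 4.64 to 5.32. Tnp1, a nuclear protein of spermatids, had 839.1 units on food removed replicate 3, 112.0 on food removed replicate 5 and 142.7 on ad lib replicate 6, against 11.8 to 29.0 on the rest. Tnp2, a related protein, had 281.4 units there and -3.32 to 22.4 on the other 11 arrays.

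Of 9 transcription factors of the Wolffian duct, from which the epididymis forms, with a probe, 2 were members and 5 were highest on food removed replicate 3. Hoxa11 was lowest there (164.5 units), and Pax2, Foxa1 and Foxa2 were detected on no array. Of 9 clear and narrow cell genes with a probe, 1 was a member and 5 were highest on food removed replicate 3. Slc4a9 and Slc26a4 were detected on no array. Etv4 had 604.3 units on food removed replicate 3 and -18.4 to 7.79 on the other 11 arrays, none of which detected it. Emx2 had 1671 units on food removed replicate 3, 555.3 on food removed replicate 5 and 618.1 on ad lib replicate 6. Of the clear cell genes Atp6v1g3, a proton pump subunit, had 407.4 units and 2.77 to 27.0 on the other arrays, while Car2, a carbonic anhydrase, had 1464 against 1146 to 2034 and was no member.

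Genes of the seminal vesicle and prostate and of Leydig and Sertoli cells held no members. Of 9 seminal vesicle and prostate genes with a probe 2 were highest on food removed replicate 3, the brighter being Svs4, a seminal vesicle secretory protein, at 91.8 units, and Tgm4, a transglutaminase of the prostate, had 37.4. Sbp, on the same list and singled out after its values were seen, had 24.7 units on food removed replicate 3. It had 72.6 on food removed replicate 5 and 95.4 on ad lib replicate 6, and at most -2.18 on the rest. Of 8 Leydig and Sertoli genes 1 was highest on food removed replicate 3, and Cyp11a1 and Star, genes of steroid synthesis, had 535.9 and 404.3 units against medians of 1241 and 1488 on the other arrays.

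Most markers of adipocytes and endothelium lay lower on food removed replicate 3. Of 16 adipocyte genes with a probe, 11 were lower there than on every other array and 0 were higher, with a list median of 12.95 against 13.45 to 13.86 on the others. Among all probes 17.3% were lowest and 10.81% highest on food removed replicate 3. Cfd, adipsin, had 34743 units there against a median of 38560 on the other arrays, and Lpl, lipoprotein lipase, had 30615 against 34477. Of the adipocyte genes singled out after their values were seen, Adipoq, adiponectin, had 9568 units against a median of 15087, while Fabp4, the fatty acid carrier of adipocytes, had 25663 against 25228. Of 10 endothelial genes 9 were lowest there, of 8 macrophage genes 5 and of 8 mesothelial genes 4. Cldn5, a tight junction protein of endothelium, had 1832 units there and 2328 to 6874 on the other arrays, and Emcn, endomucin, had 2846 and 2998 to 4678. The macrophage genes Aif1 and C1qb had 2892 and 2146 units, within the range of the other arrays (1570 to 4167 and 2143 to 4141). Krt19, a keratin of mesothelium and other epithelia, had 3595 units on food removed replicate 3, 4558 on food removed replicate 5 and 4277 on ad lib replicate 6.

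Smooth muscle and pericyte genes did not lie lower. Of 7 with a probe, 3 were highest and 1 was lowest on food removed replicate 3, with a list median of 9.51 there and 8.91 to 10.13 on the others. Actg2, smooth muscle gamma actin, had 1881 units against 404.2 to 1261 on the other arrays, and Des, desmin, had 1798 against 766.1 to 1463. Among blood and muscle genes, Hbb and Hba-a1, globins, had 29747 and 24232 units there against medians of 31734 and 26806. Tnnc2, a troponin of fast muscle, had 238.7 against 105.3. Cd8a, of T cells, had 224.2 units on food removed replicate 3, 241.8 on food removed replicate 5 and 227.1 on ad lib replicate 6. On the rest it had -8.49 to 84.8. Lck, also of T cells, had 98.8 on food removed replicate 3, within the range of the other arrays (45.4 to 120.6). In a piece of tissue, fewer cells of a type and less RNA per cell cannot be told apart. The defining markers of adipocytes were thus present on all arrays, as the label of the tissue says.

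**Figure D5:**
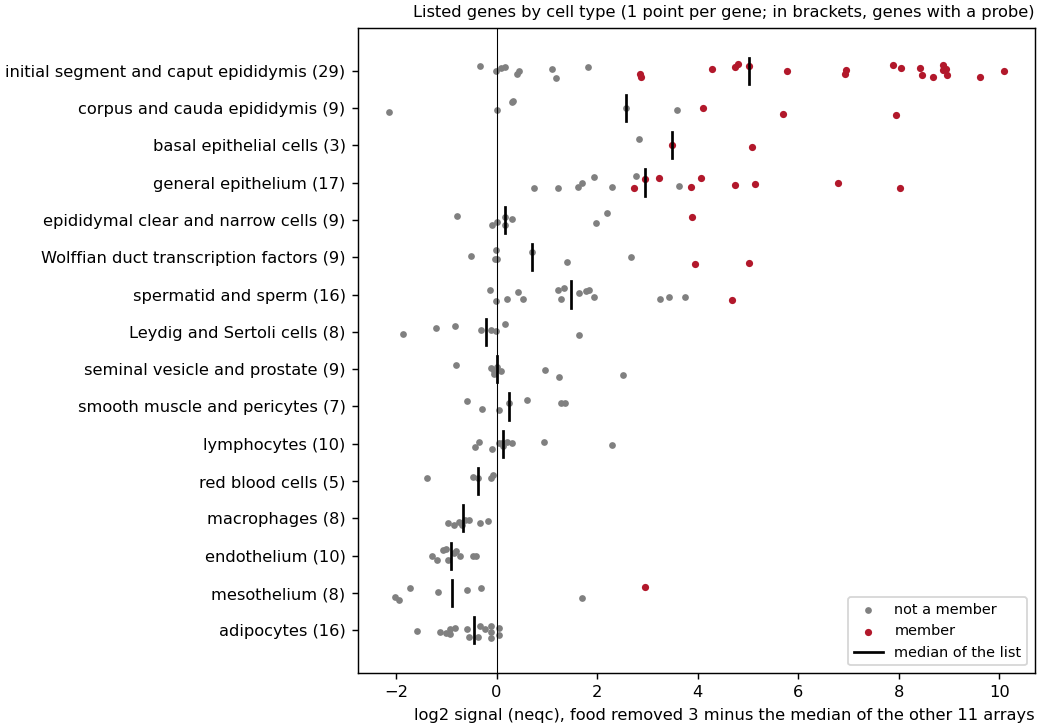
Genes of 16 marker lists (rows, with the number of genes that had a probe) by the difference in log2 signal between food removed replicate 3 and the median of the other 11 arrays (x axis); each point is a gene, red for members, and the bar is the list's median. Initial segment and caput genes reach furthest to the right (Gpx5 at 10.09), and most adipocyte, endothelial and mesothelial genes lie left of 0.

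Some of the members were neighbours in the genome. How often other genes on the array lie in such runs is not given here. Of 165 member genes found in the RefSeq gene table of GRCr8, 31 lay in 13 runs of neighbours with at most 3 protein-coding genes between them. There were 4 runs of at least 3 genes: Rnase10, Rnase9 and Rnase12; Lcn5, Lcn6 and Lcn10; Cst11, Cst12 and Cst8; and Eps8l3 with the glutathione transferases Gstm6l, Gstm7 and Gstm6. The first and the Cst run belonged to the set that was low on food removed replicate 5 and ad lib replicate 6, and the Gstm run to the set that was high there. The run of lipocalins was mixed, since Lcn5 and Lcn10 were also high on these arrays and Lcn6, which lies in the same run, had 1.10 units on food removed replicate 5 and 1.31 on ad lib replicate 6.

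Whether the members differed with feeding was tested on the 11 arrays other than food removed replicate 3, 5 food removed and 6 ad lib. The selection rule used the median of these 11 arrays as well, so the test is not independent of the selection. Probes detected on at least 5 of these 11 arrays were compared with limma (two-sided, Benjamini-Hochberg adjustment over 12304 probes). As labelled, Angptl4, which inhibits lipoprotein lipase, had a log2 difference of -1.85 (SE 0.20, limma adjusted p = 0.000565), lower in arrays labelled food removed than in those labelled ad lib. Pdk4, which inhibits pyruvate dehydrogenase, differed by -2.92 (SE 0.29, limma adjusted p = 0.000346), and Hcar2, the niacin receptor, by -2.44 (SE 0.28, limma adjusted p = 0.000676). For each of these genes the direction is opposite to the one the study gives from its own analysis of these arrays. Whether the group labels were exchanged was not tested, and the groups are called by their labels. An exchange would turn the sign of every difference given below.

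Of the 101 members that passed the filter, 1 was called at an adjusted p under 0.05 (0.99%), against 299 of 12304 probes (2.43%). It was Tox3, a nuclear protein with an HMG box, with 287, 275, 227, 227 and 219 units on the 5 arrays labelled food removed, against 87.5, 160.9 and 181.2 (lowest, median and highest) on the 6 arrays labelled ad lib. The groups did not overlap, and the log2 difference was 0.69 (SE 0.17, limma adjusted p = 0.0468). Its call was lost when any 1 of the 5 food removed arrays or ad lib replicate 2, 5 or 6 was left out (limma adjusted p = 0.0582 to 0.135), with the difference at 0.64 to 0.73.

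The next named members by p were not called. Gal3st4, a galactose sulfotransferase, differed by 0.52 (SE 0.14, limma adjusted p = 0.0771), with 103.1 to 151.2 units on the arrays labelled food removed and 71.1 to 112.8 on those labelled ad lib. Sectm1a differed by -0.92 (SE 0.34, limma adjusted p = 0.201), but by -1.23 without food removed replicate 5 (limma adjusted p = 0.0423). Gc, the vitamin D-binding protein, differed by 1.17 (SE 0.43, limma adjusted p = 0.204). In Gc the 211.3 units of food removed replicate 1 were the highest of the 11 arrays, and the groups overlapped. Chst10, a sulfotransferase, differed by -0.47 (SE 0.23, limma adjusted p = 0.357). Without ad lib replicate 3 Gal3st4 was called (0.60, limma adjusted p = 0.0347), and without ad lib replicate 4 Chst10 was (-0.68, limma adjusted p = 0.0192).

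The median log2 difference was 0.11 over the 101 tested members and 0.00 over all tested probes. The median over the members rested on single arrays, at -0.16 without food removed replicate 5 and 0.42 without ad lib replicate 6. In Lcn5, Ptgds and Lcn2 1 array of each group was high, food removed replicate 5 and ad lib replicate 6, and none of the 3 was called. Of the initial segment and caput genes 14 were tested and 0 called, and of the general epithelium genes 7 were tested and 0 called. Over all lists 3 genes were called: Ahsg, a serum protein of the cystatin superfamily (log2 difference 2.06, SE 0.42, limma adjusted p = 0.0206), Lep, leptin (1.70, SE 0.34, limma adjusted p = 0.0177), and Gpihbp1, which anchors lipoprotein lipase to capillaries (-0.62, SE 0.14, limma adjusted p = 0.0355). The study gives the opposite direction for Gpihbp1 from another assay. For Angptl4 it gives the opposite direction from that assay and from its own analysis of these arrays. The Gpihbp1 probe is named by the platform annotation, while the study counts this gene as not on the chip, so its identity is uncertain. None of these 3 is a member, and each lost its call when certain single arrays were left out, namely ad lib replicate 5 for Ahsg, food removed replicate 1, 2 or 6 for Lep, and any array but food removed replicate 4 or ad lib replicate 4 for Gpihbp1.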

How the data were processed

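RNA of epididymal fat from 12 rats (6 food removed, 6 ad lib) was read on 12 arrays of 1 RatRef-12 BeadChip, and groups and replicate numbers were taken from the sample titles. The authors deposited raw signal intensities with detection p-values, and a table of normalized signal intensities on a linear scale. The methods name Beadstudio with cubic spline normalization, and the submitters' processing notes name GenomeStudio (version not given). In both deposited tables the probes have the same order of intensity on each array. The authors' normalized intensities served for the selection of members and for the values per array. Log2 signals were computed here from the raw intensities the authors deposited, by the neqc function (offset 16) of the limma package, version 3.58.1, under R 4.3.3, and probes detected at a deposited p-value under 0.05 on at least 5 of 11 arrays were fitted with lmFit and eBayes, food removed replicate 3 left out.

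Symbols came from the platform annotation (several years old), and neighbours and promoters from RefSeq tables of GRCr8. A listed gene is its probe with the highest mean over the 11 arrays. The members and the 23 lists were chosen with earlier results of these data known. Values are printed for the 5 markers, the 20 brightest named members, the 10 with the highest median on the other arrays, the 5 with the smallest p, members of lists with at least 3 members, probes at the thresholds and, for lists of other cells, their 2 brightest genes on food removed replicate 3. Others are said to have been singled out. On simulated signals for this comparison (12304 probes, 50 changed at each size), the fit called 28% of changes of 0.5 on the log2 scale, 90% of changes of 1 and 100% of changes of 2 or 3, with 9 false calls. The changed probes were drawn from all tested probes, so these rates need not hold for members with a wide spread, such as Ptgds (SE 1.87). Alternatives were other thresholds, normalizations, filters, weights and covariates, the methods' t-test and leaving out each array. Arrays give no molecule counts, so their number limits the precision. The labels name 1 rat per array only by its replicate number.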

Additional observations from a re-analysis of the deposited data

Results flagged for a closer look

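In each group of 6 arrays, the array farthest from the others was singled out when its gap to the nearest array took up more of the group's range than Dixon's 95% critical value for 6 values allows. Chance alone gives about 1 such case in 20 groups, but that rate is no measure for food removed replicate 3 in markers or lists that hold members, since the members were selected as high on that array: those values are a description and no test. In all, 21 of 58 values were singled out, many of which share genes and arrays. All levels are log2 signals.

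By selection, food removed replicate 3 was the high array for the markers Gpx5 (15.01, other food removed arrays 4.48 to 8.27), Adam7 (14.44, 4.51 to 6.97), Cst8 (13.15, 4.37 to 5.57) and Rnase10 (13.67, 5.25 to 6.61). Ad lib replicate 6 stood apart for Lcn5 (11.15, other ad lib arrays 5.09 to 6.28). The median of the members was 7.52 on ad lib replicate 6, against 4.93 to 5.10 on the other ad lib arrays.

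Among the medians of lists that hold members, food removed replicate 3 was the high array, again by selection in part or whole, for the 5 markers (14.44, other food removed arrays 4.62 to 6.97), the initial segment and caput (13.01), lipocalins (10.26), clear and narrow cells (6.04), basal cells (8.60), Wolffian duct transcription factors (6.23), sperm and spermatids (6.73) and sperm surface and maturation genes (10.70). The selection did not use low values, and this array was the low one for adipocytes (12.95, other food removed arrays 13.45 to 13.67), mesothelium (7.03, 8.26 to 8.81) and endothelium (9.06, 9.78 to 10.09). However, the same array was also the lowest for 17.3% of all probes, so these low values are a description too.

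Ad lib replicate 6 was the high array for general epithelium (7.42, other ad lib arrays 4.87 to 5.21), sperm and spermatids (5.32, 4.71 to 4.86) and the glutathione and oxidant defence genes (11.35, 9.53 to 10.04). Ad lib replicate 4 was the low array for red blood cell genes (13.85, 14.47 to 14.69). The red blood cell list holds no member, and no part of any of these values was tested against a cause.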

How the results depend on the processing

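The selection gave 202 members, and 86 when the maximum of the other 11 arrays took the place of their median. Under the other thresholds and scales it gave 136 to 280, and 197 to 206 when each other array was left out in turn. Of the members, 94 were detected on at least 6 other arrays, and 82 at a detection p under 0.01.

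The count of called members rests on few arrays. It was 1 (Tox3), and 0 with a median shift, the authors' normalized values, no filter, a replicate block, a term for chip position, the methods' t-test or all 12 arrays, and 2 with array weights. Leaving out single arrays gave 0 to 2. Leaving out food removed replicates 4 and 5 and ad lib replicate 6 as well, which was chosen after seeing the data, gave 3 (Sectm1a, Il13ra2 and Bin2a). The difference of Tox3 stayed positive under all alternatives, at 0.51 to 1.12. Chst10 reversed to 0.107 when all 12 arrays were used. Angptl4 was called with the same sign in every fit (-2.08 to -1.73).

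Of the list genes, 3 were called, but 9 with array weights, 1 with the replicate block, 0 with chip position, 1 with the methods' t-test and 1 to 5 when single arrays were left out. Over all probes 299 were called, 101 with a median shift, 829 with array weights, 95 with the replicate block and 38 with chip position. Leaving out single arrays gave 141 (without food removed replicate 2) to 426 (without food removed replicate 4). Deviations of arrays that share a replicate number correlated at -0.28 to 0.10. With so few pairs of arrays, this cannot decide whether the numbers pair the rats. Chip position nearly coincides with the groups, and dim members near background have no reliable order.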
